A study of Homo sapiens with 12 samples.

Results

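Genes by which kidney tubule cells are recognised, 8 in all, were followed in sunitinib-resistant and parental clear cell renal cell carcinoma (ccRCC) cells. They were 5 transcription factors (PAX8, PAX2, LHX1, HNF4A and EMX2), the kidney cadherin CDH6, and CUBN and LRP2, the endocytic receptors of the proximal tubule. These 8 genes were chosen by name from the 45478 genes of the deposited count table, and all of them were found there. mRNA had been sequenced from 3 libraries of each of 4 groups. The parental groups were 786-O and A498, ccRCC cell lines that lack functional VHL. The groups labelled sunitinib-resistant, called resistant 786-O and resistant A498 here, had been grown out of these lines in 4 μM and 2 μM sunitinib, an inhibitor of several receptor tyrosine kinases, over 4 months or more than 20 passages, each as 1 named culture that stayed in the drug during selection. All 12 libraries carry veh in their titles and a treatment of none, and whether drug was present at harvest is not stated. Each group carries its own batch label, so that batch and group cannot be told apart, and whether the 3 libraries of a group come from separate cultures is not stated. P-values therefore measure only the spread between these libraries.

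PAX8 and PAX2 are paired-box factors that start and maintain the nephric lineage, and PAX8 remains on in most renal tumours, where pathologists use it as a marker of origin. LHX1 and EMX2 are homeobox factors needed for the nephric duct and early nephron, and HNF4A is the nuclear receptor that drives maturation of the proximal tubule, the segment from which ccRCC is thought to arise. CDH6, also called K-cadherin, holds immature proximal tubule cells together. CUBN (cubilin) and LRP2 (megalin) form the apical receptor pair by which the mature proximal tubule takes up filtered protein.

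Total counts ranged from 20042519 to 47972092 per library. Levels are given as CPM, read counts scaled to library size by edgeR's TMM method, and levels of different genes are compared only as CPM per kilobase of exon. The libraries labelled resistant A498 went against their label, as their log2 CPM correlated across genes more closely with the 786-O groups (median r 0.982 with resistant 786-O, 0.951 with parental 786-O) than with parental A498 (0.870), and parental A498 and parental 786-O reached 0.868 with each other. Levels in resistant A498 are therefore set beside both parental lines. Replicate 2 of resistant 786-O also stood apart, with an SD of 0.45 of its log2 deviations from the other libraries of its group, against 0.261 to 0.327 for the other libraries. Clear cell markers were present, with 8 or 9 of 10 at 1 CPM or more in every group and a summed level of 2129 to 2719 CPM, although CA9, a hypoxia-inducible carbonic anhydrase, was the one listed at or near 0 outside parental A498. Of the 17 T cell markers, 12 to 14 had 3 counts or fewer in all libraries of a group, and only IL7R reached 1 CPM. In bulk RNA, fewer cells of a type and less RNA per cell cannot be told apart.

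The promoters of HNF4A, LRP2 and CUBN are shown because HNF4A and LRP2 were near 0 in some groups and counted in others, whereas CUBN was counted in all of them. Each run is the 250 bases before a transcription start in RefSeq (GRCh38.p14), written in the direction of the gene. Of the 8 genes, 6 had a promoter in that table, with 8 windows among them. Capitals mark matches on either strand to 6 short motifs. The TATA box was searched for as TATAAA, and the GC box was searched for with the letters GGGCGG. The other promoter box was CCAAT, known by those letters. The core of the hypoxia response element was written ACGTG. The core of an HNF1 site was given the letters GTTAAT here, and for an HNF4 site the letters searched were CAAAGT. A match to letters is a description, not evidence of binding.
HNF4A, upstream start (chr20:44355449-44355698, plus strand): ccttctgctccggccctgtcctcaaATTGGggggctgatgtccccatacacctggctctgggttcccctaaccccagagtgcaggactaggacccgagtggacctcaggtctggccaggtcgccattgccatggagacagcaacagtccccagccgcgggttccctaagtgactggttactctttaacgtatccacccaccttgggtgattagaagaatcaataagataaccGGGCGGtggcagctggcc
HNF4A, downstream start (chr20:44400989-44401238, plus strand): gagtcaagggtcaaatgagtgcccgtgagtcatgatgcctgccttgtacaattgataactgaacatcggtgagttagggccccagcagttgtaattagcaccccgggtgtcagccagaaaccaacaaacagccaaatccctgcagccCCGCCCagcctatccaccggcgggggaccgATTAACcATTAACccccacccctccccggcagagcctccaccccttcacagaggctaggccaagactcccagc
LRP2 (chr2:169362535-169362784, minus strand): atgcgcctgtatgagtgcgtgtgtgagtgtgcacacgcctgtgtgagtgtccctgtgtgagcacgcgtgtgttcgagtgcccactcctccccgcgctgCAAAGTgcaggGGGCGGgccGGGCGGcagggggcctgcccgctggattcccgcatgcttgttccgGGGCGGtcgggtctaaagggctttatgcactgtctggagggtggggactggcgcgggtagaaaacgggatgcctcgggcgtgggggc
CUBN (chr10:17129812-17130061, minus strand): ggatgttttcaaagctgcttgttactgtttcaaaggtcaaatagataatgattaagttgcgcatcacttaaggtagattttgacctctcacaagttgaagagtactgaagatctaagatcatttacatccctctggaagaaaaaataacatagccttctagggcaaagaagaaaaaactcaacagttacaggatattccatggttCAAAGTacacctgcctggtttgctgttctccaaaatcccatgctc

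These windows differed in their letters. The downstream HNF4A window held 2 matches to the core of an HNF1 site, at 73 to 68 and 66 to 61 bases before the start, a motif found in 6.23% of 35116 promoter windows. The upstream HNF4A window held none, and had 1 GC box and 1 CCAAT box. LRP2 held 3 GC boxes, a motif in 42.6% of windows, and 1 HNF4 core, a motif in 10.3%. CUBN was AT-rich, with 38% GC against a median of 58% over all windows, and its only match was 1 HNF4 core at 45 to 40 bases before the start.

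Of the 8 genes, 6 had enough counts to be tested in a single edgeR quasi-likelihood model of the 12 libraries, and EMX2 and LRP2 did not. Between resistant 786-O and parental 786-O, 3 of the 6 rose (PAX2, HNF4A and LHX1) and 2 fell (PAX8 and CDH6) at a Benjamini-Hochberg adjusted p under 0.05, while 68.5% of the 19929 genes tested were called (35% higher and 33.5% lower, or 8550 genes higher and 5136 lower when scaled by library size alone). Between the libraries labelled resistant A498 and parental A498, 1 rose (PAX2) and 3 fell (PAX8, HNF4A and LHX1), with 72.7% of all genes called (36.3% higher and 36.4% lower). Between the same resistant A498 libraries and parental 786-O, 2 rose (PAX2 and HNF4A) and 2 fell (PAX8 and CDH6), with 63.6% of all genes called (31.6% higher and 32.1% lower, or 7923 genes higher and 4743 lower when scaled by library size alone). The shares of members called were thus close to those of all genes, and the description rests on the individual genes.

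**Figure D1:**
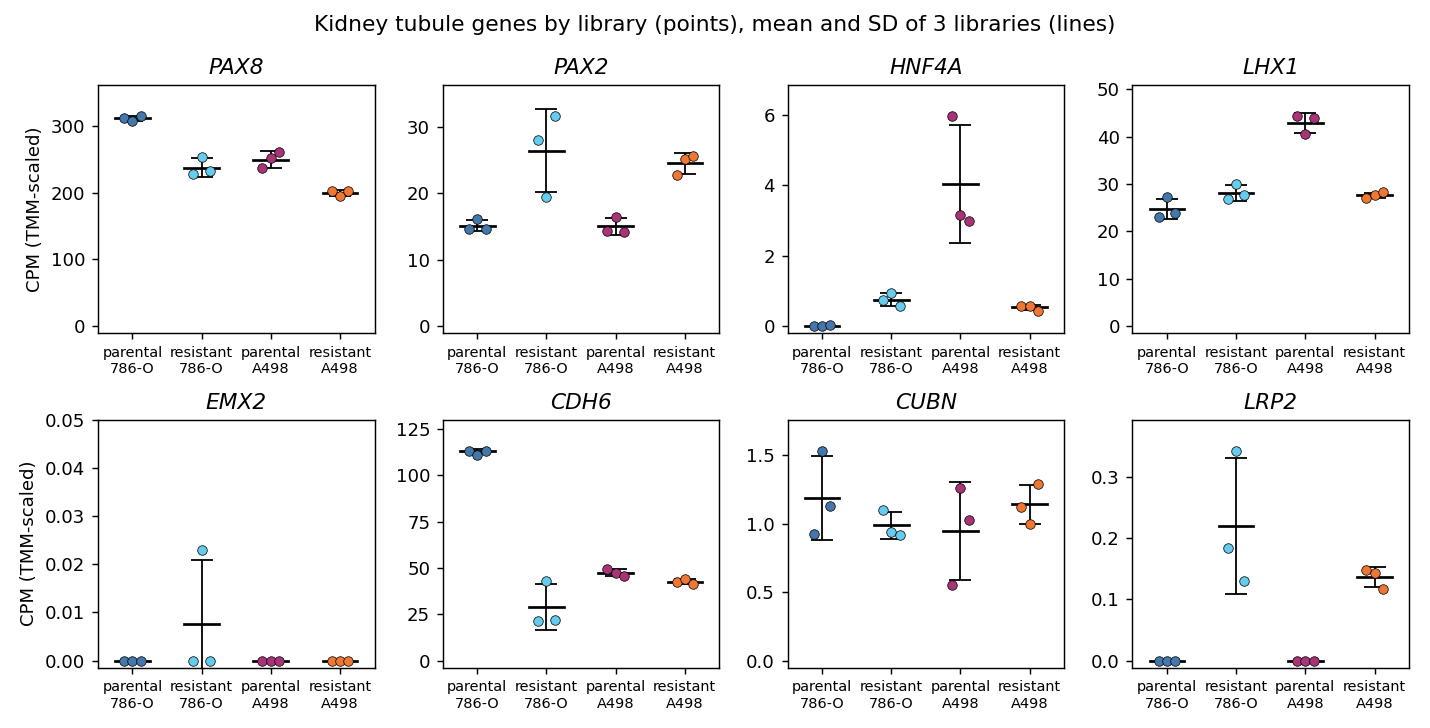
CPM (vertical axis, linear, one scale per panel) of the 8 genes in the 4 groups (horizontal axis). Points are the 3 libraries of a group, horizontal lines the mean and whiskers the SD. PAX8 was highest in parental 786-O (308 to 315 CPM), PAX2 was higher in both groups labelled resistant, HNF4A and LHX1 were highest in parental A498, CDH6 was highest in parental 786-O, and LRP2 was at 0 in both parental groups.

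PAX8 was the most abundant of the 5 factors. Its gene lies on chromosome 2 (113215997 to 113278921, minus strand, GRCh38). It stood at 313, 308 and 315 CPM in parental 786-O and 228, 254 and 233 CPM in resistant 786-O. The libraries of parental A498 held 237, 252 and 262 CPM and those labelled resistant A498 202, 195 and 203 CPM. The lowest parental 786-O library lay above the highest of every other group, and the resistant A498 libraries lay below all others, whereas resistant 786-O and parental A498 overlapped. PAX8 fell in resistant 786-O, with a log2 fold change of -0.39 (standard error 0.05, edgeR adjusted p = 6.3e-06). Against parental A498 the resistant A498 libraries were lower, with a log2 fold change of -0.33 (standard error 0.05, edgeR adjusted p = 3.3e-05), and so they were against parental 786-O, with one of -0.64 (standard error 0.05, edgeR adjusted p = 3.5e-08). The difference between the changes of the 2 pairs was 0.06 (95% interval -0.09 to 0.21). PAX8 shares 1651 of its 7371 exonic bases with PAX8-AS1 on the other strand, whose counts came to 16.7% to 23.8% of those of PAX8. Whether reads of the 2 strands were separated, mixed or swapped in this table is uncertain. In it, 287 antisense genes lying within the exons of a coding gene had a median of 148% of its counts per base (quartiles 58% and 231%). The strand setting behind the table was not settled. With the counts of PAX8 and PAX8-AS1 added together, an alternative chosen after seeing the data, the log2 fold change was -0.34 in resistant 786-O against parental 786-O and -0.30 in resistant A498 against parental A498.

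PAX2 rose in both groups labelled resistant. Its gene lies on chromosome 10 (100735396 to 100829944, plus strand). It had 14.6, 16.1 and 14.6 CPM in parental 786-O and 28, 19.5 and 31.6 CPM in resistant 786-O. The parental A498 libraries held 14.3, 16.4 and 14.2 CPM and those labelled resistant A498 22.7, 25.2 and 25.6 CPM. All 6 libraries labelled resistant lay above all 6 parental ones, and the lowest of them was the resistant 786-O library that stood apart, replicate 2. The log2 fold change was 0.81 (standard error 0.13, edgeR adjusted p = 6.7e-05) in resistant over parental 786-O and 0.71 (standard error 0.14, edgeR adjusted p = 3.0e-04) in resistant over parental A498. Over parental 786-O the resistant A498 libraries were higher by 0.70 (standard error 0.14, edgeR adjusted p = 3.6e-04). The parental lines differed by 0.01 with a 95% interval from -0.28 to 0.31, and the groups labelled resistant by -0.11 with an interval from -0.39 to 0.17. Without replicate 2 of resistant 786-O the latter became -0.28 (edgeR adjusted p = 5.5e-04), so whether PAX2 differed between them rested on that library.

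Per kilobase of exon, PAX8 remained far above PAX2 in all groups. The level of PAX8 was 42.3 ± 0.49 CPM per kilobase in parental 786-O and 27.1 ± 0.61 in resistant A498 (mean ± SD, n = 3), and that of PAX2 was 2.29 ± 0.131 and 3.72 ± 0.239. PAX2 made up 5.14% ± 0.335 of the summed level of both genes in parental 786-O, 11.1% ± 2.79 in resistant 786-O, 6.29% ± 0.541 in parental A498 and 12.1% ± 0.789 in resistant A498 (SD, n = 3). The highest parental library stood at 6.8% and the lowest of the groups labelled resistant at 7.9%, in a ratio built from the same counts tested above.

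**Figure D2:**
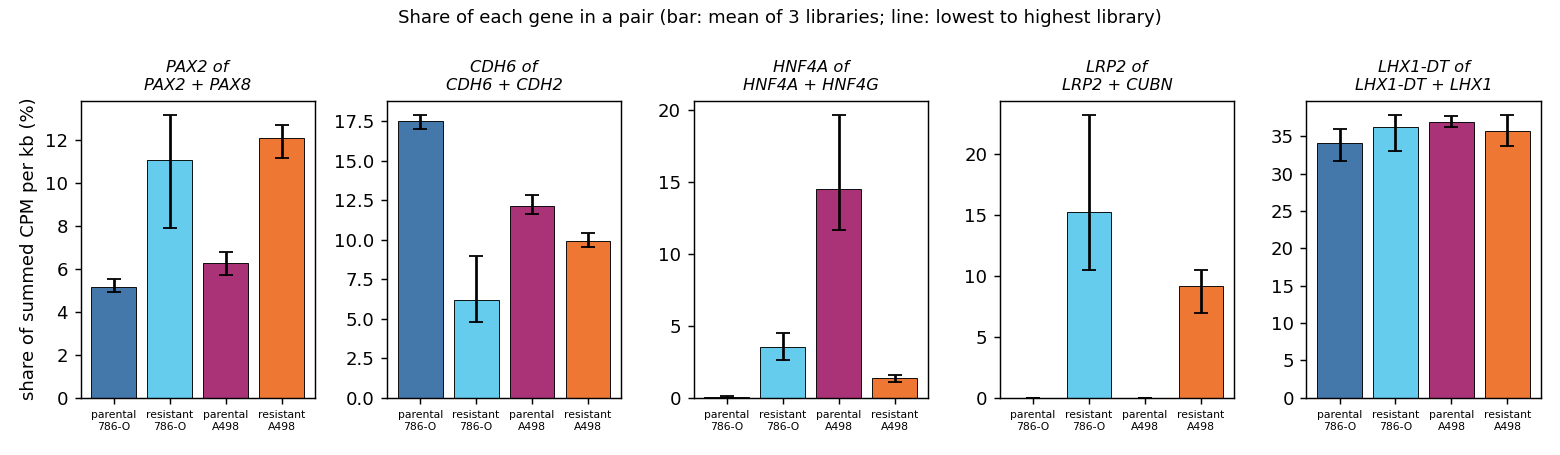
Share of a gene in the summed CPM per kilobase of a pair, in percent (vertical axis, from 0, one scale per panel), in the 4 groups. Bars are means of 3 libraries and lines run from the lowest to the highest library. PAX2 takes 11.1% and 12.1% of the PAX2 and PAX8 sum in resistant 786-O and resistant A498 against 5.14% and 6.29% in the parental lines, and LHX1-DT keeps 34.1% to 36.9% of its sum with LHX1 in all groups.

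LHX1 was set apart by parental A498. Its gene lies on chromosome 17 (36936785 to 36944612, plus strand). It held 44.3, 40.5 and 43.9 CPM in parental A498 and 27.1, 27.7 and 28.2 CPM in the libraries labelled resistant A498. In parental 786-O it had 23, 27.2 and 23.9 CPM and in resistant 786-O 26.8, 30 and 27.6 CPM. The parental A498 libraries lay above all 9 others, and the other 3 groups overlapped pairwise. The log2 fold change of LHX1 was -0.64 in resistant over parental A498 (standard error 0.07, edgeR adjusted p = 8.3e-07) and -0.80 in parental 786-O over parental A498 (standard error 0.07, edgeR adjusted p = 4.4e-08). Against parental 786-O, the resistant A498 libraries had a log2 fold change of 0.16 (95% interval 0.01 to 0.31, edgeR adjusted p = 0.056), a difference that was called with library size scaling (0.0011), DESeq2 (0.028), 10 counts in every library (0.017), the 2 groups alone (0.0029), thinning (0.02) and 4 of the fits without 1 library (0.011 to 0.029). In resistant 786-O the gene rose, with a log2 fold change of 0.19 over parental 786-O (standard error 0.07, edgeR adjusted p = 0.025), a call that ended without a filter on low counts (adjusted p = 0.051) and on leaving out parental 786-O replicate 1 (0.13) or replicate 3 (0.099). The changes of the 2 pairs differed by -0.82 (standard error 0.10, edgeR adjusted p = 2.4e-06), a test that called 68.3% of all genes.

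LHX1-DT, a long noncoding RNA that starts beside LHX1 and runs the other way, went the same way as its neighbour in both pairs. It stood at 9.4 ± 0.457 CPM in parental 786-O, 11.7 ± 0.797 in resistant 786-O, 18.5 ± 0.344 in parental A498 and 11.3 ± 1.11 in resistant A498 (SD, n = 3). It rose in resistant over parental 786-O by a log2 fold change of 0.32 (edgeR adjusted p = 0.0028) and was lower in resistant A498 than in parental A498 by one of -0.71 (edgeR adjusted p = 2.0e-06). Its counts were 34.2% to 45% of those of LHX1 over the 12 libraries.

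HNF4A was the one transcription factor counted in some groups and nearly absent from another. Its gene lies on chromosome 20 (44355699 to 44432845, plus strand). The parental 786-O libraries held 0, 0 and 1 counts and those of resistant 786-O 36, 41 and 26. In parental A498 there were 206, 68 and 81 counts and in the libraries labelled resistant A498 15, 12 and 11. Parental A498 was thus the highest group and its replicate 1, at 5.96 CPM, lay well above the other 2, at 3.16 and 2.98 CPM. Summed over libraries and scaled for depth, HNF4A was 90.6 times as high in resistant 786-O as in parental 786-O (95% exact counting interval 15.9 to 3615, from 103 counts against 1). The single count was in replicate 3, and without that library the fitted log2 fold change went from 5.99 to 7.66. The libraries labelled resistant A498 were at 0.122 times the level of parental A498 (0.0846 to 0.17) and at 63.1 times that of parental 786-O (10.7 to 2559, from 38 counts against 1). These intervals cover counting error only. All 3 differences passed edgeR's test, with adjusted p = 4.5e-06, 8.1e-07 and 6.1e-05. The changes of the 2 pairs differed by -8.96 on the fitted log2 scale, which depends on the prior count where a group is near 0 (edgeR adjusted p = 6.7e-08).

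The level of HNF4A stayed low in all groups, with 0.397 ± 0.165 CPM per kilobase in parental A498 and 0.0735 ± 0.0182 in resistant 786-O (SD, n = 3), where PAX8 had 34 and 32.3. Between the groups labelled resistant the ratio was 0.697 (counting interval 0.467 to 1.02), and edgeR gave an adjusted p of 0.29. Next to HNF4G, its paralogue, HNF4A made up 14.5% ± 4.53 of the summed level per kilobase in parental A498, 3.54% ± 0.937 in resistant 786-O, 1.37% ± 0.242 in resistant A498 and 0.034% ± 0.0589 in parental 786-O. The nearest tested genes on the chromosome, TTPAL 91 kilobases beyond it and FITM2 87 kilobases before it, were not called in resistant over parental 786-O, with log2 fold changes of -0.07 and 0.15 (edgeR adjusted p = 0.23 and 0.12). Of the 3 genes on each side, 2 rose and none fell in that comparison, where 35% and 33.5% of all genes did. In resistant over parental A498, 5 were higher, where 36.3% of all genes were. HNF4A-AS1, the antisense transcript, had 1 count in all 12 libraries together.

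EMX2 was not detected beyond a single count. Its gene lies on chromosome 10 (117542445 to 117549546, plus strand). It had 0 counts in 11 libraries and 1 count in resistant 786-O replicate 2, so no difference could be detected at this depth, where 3 counts over a group correspond to 0.0217 to 0.0409 CPM. EMX2OS on the other strand had 1 count in each of 2 libraries of resistant 786-O and none elsewhere.

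Of the 5 genes counted in all libraries, CDH6 had the largest change in resistant 786-O. Its gene lies on chromosome 5 (31193686 to 31329146, plus strand). It stood at 113, 111 and 113 CPM in parental 786-O and at 21.1, 43.1 and 21.9 CPM in resistant 786-O. The parental A498 libraries held 49.3, 47 and 45.8 CPM and those labelled resistant A498 42.6, 43.9 and 41.1 CPM. The parental 786-O libraries lay far above all others, and the high value of resistant 786-O was again that of replicate 2. CDH6 fell in resistant 786-O, with a log2 fold change of -1.98 (standard error 0.19, edgeR adjusted p = 2.3e-07), and of -2.39 without replicate 2. Against parental 786-O, the resistant A498 libraries were lower, at a log2 fold change of -1.41 (standard error 0.19, edgeR adjusted p = 8.9e-06). Against parental A498 they differed by -0.16 (95% interval -0.56 to 0.25, edgeR adjusted p = 0.47), although the groups did not overlap, as was true of 78.5% of all genes. That comparison was called when the 2 groups were fitted alone (adjusted p = 0.0015) and when resistant 786-O replicate 2 was left out of the shared estimate of spread (0.0028). The changes of the 2 pairs differed by 1.82 (standard error 0.26, edgeR adjusted p = 2.0e-05). Between the groups labelled resistant the log2 fold change was 0.57 (edgeR adjusted p = 0.023), a call lost with DESeq2 (0.06), in a fit of these 2 groups alone (0.098) and on leaving out each of 4 libraries in turn, replicates 1 and 3 of resistant 786-O and 1 and 2 of resistant A498 (0.056 to 0.09).

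CDH6 was set beside the other cadherins of the fixed list. CDH2, N-cadherin, was the most abundant of them, at 367 ± 8.25 CPM in parental 786-O, 297 ± 10.4 in resistant 786-O, 238 ± 8.09 in parental A498 and 267 ± 9.96 in resistant A498. Per kilobase, CDH6 fell from 17.5% ± 0.448 of the sum of CDH6 and CDH2 in parental 786-O to 6.19% ± 2.38 in resistant 786-O, and took 12.1% ± 0.606 in parental A498 and 9.91% ± 0.423 in resistant A498. Of 10 cadherins tested, 7 rose and 2 fell in resistant over parental 786-O, where 35% and 33.5% of all genes did. CDH16, the kidney-specific cadherin, rose from 1.98 ± 0.318 to 5.64 ± 0.33 CPM, and CDH13, a cadherin without a cytoplasmic tail, fell from 37.4 ± 0.974 to 2.36 ± 1.26 CPM. In resistant over parental A498, 4 were higher and 5 lower (90% called against 72.7% of all genes). In resistant A498 over parental 786-O, 4 were higher and 2 lower (60% against 63.6%). CDH17, the intestinal cadherin, stood at 14.7 ± 2.21 CPM in parental A498 and 0.194 ± 0.0419 in resistant A498, with 0.204 ± 0.091 in parental 786-O. CDH11, a mesenchymal cadherin, had 16.5 ± 0.838 CPM in parental A498, 0.925 ± 0.136 in resistant A498 and 0.795 ± 0.0394 in parental 786-O, so that for both genes resistant A498 lay near parental 786-O.

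**Figure D3:**
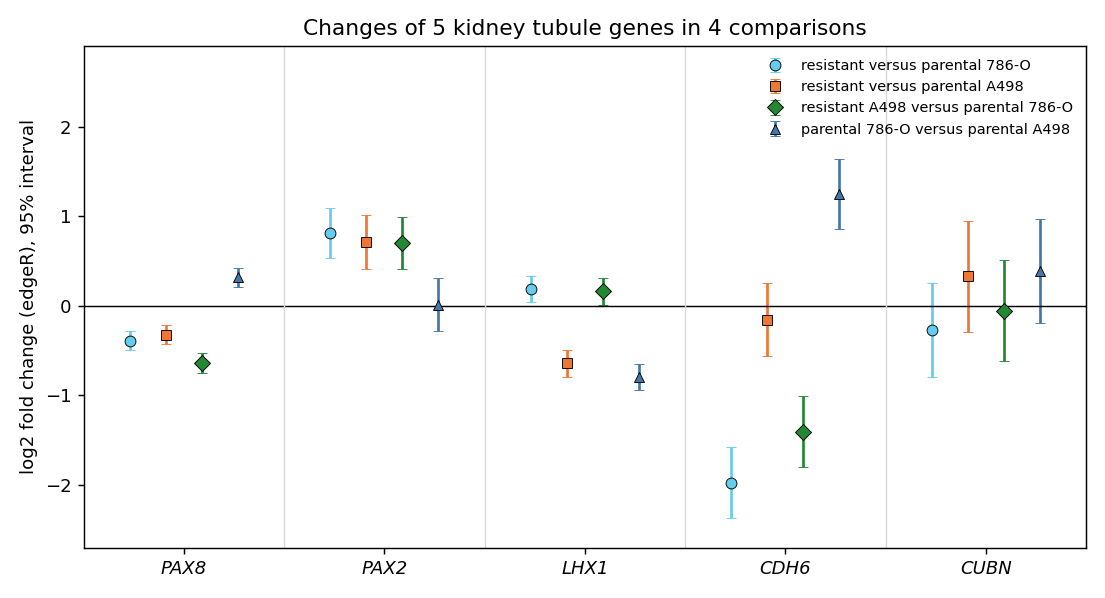
Log2 fold changes from the edgeR model with 95% intervals (vertical axis) for PAX8, PAX2, LHX1, CDH6 and CUBN in 4 comparisons (symbols). HNF4A is left out because its fitted value against parental 786-O depends on the prior count. PAX2 lies above 0 and PAX8 below 0 in all 3 comparisons of a group labelled resistant with a parental group, CDH6 falls by 1.98 in resistant 786-O and by 1.41 against parental 786-O in resistant A498, and the intervals of CUBN cross 0.

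The 2 endocytic receptors of the proximal tubule were set side by side. CUBN lies on chromosome 10 (16823966 to 17129811, minus strand) and LRP2 on chromosome 2 (169127109 to 169362534, minus strand). CUBN was counted in all libraries, at 0.921, 1.53 and 1.13 CPM in parental 786-O and 1.1, 0.939 and 0.918 CPM in resistant 786-O. It had 0.55, 1.26 and 1.03 CPM in parental A498 and 1.12, 1 and 1.29 CPM in resistant A498. All 4 groups overlapped. Its log2 fold change was -0.27 in resistant over parental 786-O (95% interval -0.79 to 0.25, edgeR adjusted p = 0.34) and 0.33 in resistant over parental A498 (-0.29 to 0.95, adjusted p = 0.32). With 19 to 59 counts per library, changes within these intervals were not detectable.

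LRP2 had 0 counts in all 6 parental libraries and some in all 6 libraries labelled resistant. These were 9, 15 and 6 counts in resistant 786-O and 4, 3 and 3 in resistant A498. Set against a floor of 3 counts over the group at 0, LRP2 in resistant 786-O stood at 8.8 times the floor of parental 786-O. In the libraries labelled resistant A498 it stood at 3.79 times the floor of parental A498 and 5.54 times that of parental 786-O. These ratios leave out the counting error of the higher group, so they are not strict lower bounds. The exact permutation test of 3 against 3 libraries gave a two-sided p of 0.10 for each, the smallest it can give. LRP2 fell below the filter on low counts, and edgeR without that filter gave adjusted p = 1.2e-06, 0.0017 and 4.4e-04. Among the 37667 genes of that fit the spread was set to one common trend (infinite prior degrees of freedom, against 6.54 with the filter), so these values take no account of the spread of LRP2 itself. Of 16231 genes at 0 in all parental 786-O libraries, 76 (0.468%) reached a mean of 0.2 CPM or more in resistant 786-O, as LRP2 did with 0.22. In the other direction, 3 of 12311 genes at 0 in resistant 786-O reached that level in parental 786-O. Of 15037 genes at 0 in parental A498, 355 (2.36%) reached 0.1 CPM in resistant A498, where LRP2 had 0.137, and in the other direction 434 of 15997 (2.71%) did. Both limits were set just under the level of LRP2 after it was seen. The level of LRP2 per kilobase stayed below that of CUBN, at 15.2% ± 6.89 of the summed level in resistant 786-O and 9.13% ± 1.9 in resistant A498.

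The order of the groups was set out for each gene, with resistant 786-O against parental A498, where 74.2% of all genes were called, compared only after the levels were seen. For PAX8 it ran from parental 786-O through parental A498 and resistant 786-O to resistant A498, and the middle pair did not differ beyond their spread (log2 fold change -0.07, edgeR adjusted p = 0.21). Without resistant 786-O replicate 2 that difference became -0.11 and was called (adjusted p = 0.012). For PAX2, resistant 786-O and resistant A498 stood above parental 786-O and parental A498, with no difference called within either pair. For HNF4A the order was parental A498, then resistant 786-O and resistant A498, between which no difference was called, then parental 786-O. For LHX1 it was parental A498 and then the other 3 groups. For CDH6 it was parental 786-O, parental A498, resistant A498 and resistant 786-O, and only parental A498 and resistant A498 were neighbours with no difference called. PAX8 was also higher in parental 786-O than in parental A498, by a log2 fold change of 0.32 (edgeR adjusted p = 3.6e-05), and CDH6 by 1.25 (edgeR adjusted p = 1.7e-05). Between the parental lines 4 of the 6 genes were called, where 74.2% of all genes were, and between the groups labelled resistant 2 were (PAX8 and CDH6), where 46.1% were.

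Among 12858 genes compared by their 4 group means, centred on the log2 scale, the closest to PAX8 were YPEL1 and DGCR8, each with a root mean square difference of 0.01. RAB32 was closest to PAX2 (0.02), NUDT12 to LHX1 (0.02) and OPN1SW to CDH6 (0.07). PURPL, a noncoding RNA, was closest to HNF4A (0.08), at 0.175 CPM in parental 786-O, 2.86 in resistant 786-O, 14.9 in parental A498 and 1.88 in resistant A498. These log2 levels carried a prior count of 2, which shrinks differences of genes near 0. In the fitted model PURPL rose by 3.96 in resistant over parental 786-O, against 5.99 for HNF4A. EPC1 and PEX3 were closest to CUBN (0.01 each). Such matches rest on 4 group means and are a description only.

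The other lineage factors of the nephron were then counted. Of 31 in the list, 23 were tested, and 6 rose and 9 fell in resistant over parental 786-O, with a median log2 fold change of -0.21 against 0.03 over all genes and 65.2% called against 68.5%. In resistant over parental A498, 7 were higher and 15 lower (95.7% called against 72.7%), with a median of -0.44 against -0.00. Over parental 786-O, the resistant A498 libraries had 11 higher and 6 lower (73.9% called against 63.6%), with a median of 0.24 against 0.00. The median in parental 786-O over parental A498 was -0.29. SALL1, a zinc finger factor of the nephron progenitor, fell in both pairs, by log2 fold changes of -0.21 (edgeR adjusted p = 0.0033) and -0.44 (4.2e-06).

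WT1, the factor of nephron progenitors and podocytes, was near 0 in parental A498 alone. It had 27.6 ± 0.593 CPM in parental 786-O, 10.2 ± 0.31 in resistant 786-O and 0.0433 ± 0.0468 in parental A498, but 13.9 ± 0.339 in the libraries labelled resistant A498. It fell in resistant 786-O by a log2 fold change of -1.43 (edgeR adjusted p = 9.4e-10) and was lower in resistant A498 than in parental 786-O by one of -0.99 (7.4e-08). POU3F3, a POU factor of the loop of Henle and distal tubule, had 26.9 ± 1.01 CPM in parental A498 and 0.437 ± 0.0302 in resistant A498, with 0.569 ± 0.167 in parental 786-O and 0.144 ± 0.00795 in resistant 786-O. SIM1 went the other way, at 0.0819 ± 0.0407 CPM in parental A498, 14.6 ± 1.17 in resistant A498, 3.92 ± 0.256 in parental 786-O and 8.73 ± 2.64 in resistant 786-O. TFAP2A rose in resistant 786-O from 2.57 ± 0.231 to 11.2 ± 1.61 CPM. It fell from 21.1 ± 1.28 CPM in parental A498 to 17.5 ± 1.01 in resistant A498 (edgeR adjusted p = 0.024). FOXD1, a stromal progenitor factor, fell from 32 ± 0.986 CPM in parental 786-O to 12.9 ± 3.98 in resistant 786-O. It stood at 11.7 ± 0.15 CPM in parental A498 and 10.4 ± 0.664 in resistant A498, a difference not called (edgeR adjusted p = 0.38).

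Transporters and endocytosis genes of the proximal tubule moved both ways. Of 26 tested among 40, 11 rose and 8 fell in resistant over parental 786-O (median log2 fold change 0.05, 73.1% called against 68.5% of all genes), and 9 were higher and 10 lower in resistant over parental A498 (median -0.18, 73.1% against 72.7%). Against parental 786-O, the resistant A498 libraries had 17 higher and 4 lower (80.8% called against 63.6%), with a median of 0.92 against 0.00 over all genes. PDZK1IP1, a small membrane protein of the proximal tubule, rose from 111 ± 1.66 CPM in parental 786-O to 322 ± 38.5 in resistant 786-O, and was at 102 ± 2.2 in parental A498 and 247 ± 7.04 in resistant A498. SLC9A3, the apical sodium-proton exchanger, rose from 2.58 ± 0.356 to 14.2 ± 2.82 CPM in resistant 786-O, with 3.76 ± 0.357 in parental A498 and 8.5 ± 0.886 in resistant A498. CLCN5, the endosomal chloride-proton exchanger that endocytosis by megalin and cubilin depends on, rose from 12.1 ± 0.687 to 20 ± 0.262 CPM in resistant 786-O and stood at 3.24 ± 0.164 in parental A498 and 21.5 ± 0.93 in resistant A498. ABCC2, an apical organic anion pump, had 209 ± 9.01 CPM in parental A498 and 5.5 ± 0.956 in resistant A498, near the 2.65 ± 0.386 of parental 786-O. NHERF1, the scaffold of apical transporters, was at 516 ± 18.3 CPM in parental A498, 191 ± 5.09 in resistant A498, 137 ± 2.78 in parental 786-O and 145 ± 7.78 in resistant 786-O.

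Of the enzymes and peptidases of the proximal tubule, 21 of 39 were tested. Of these, 11 rose and 4 fell in resistant over parental 786-O (median log2 fold change 0.58, 71.4% called against 68.5% of all genes), and 11 were higher and 5 lower in resistant over parental A498 (median 0.29, 76.2% against 72.7%). Over parental 786-O, the resistant A498 libraries had 10 higher and 4 lower (median 0.38, 66.7% against 63.6%). BHMT2, a methyltransferase that makes methionine, rose in both pairs, from 43.7 ± 0.89 to 65.5 ± 2.9 CPM and from 44.4 ± 0.204 to 86.1 ± 2.56. CRYL1 and MME also rose in both, CRYL1 by log2 fold changes of 0.67 (edgeR adjusted p = 7.1e-06) and 1.56 (1.6e-09) and MME, the brush border endopeptidase neprilysin, by 0.56 (3.8e-05) and 1.86 (3.2e-10). In resistant A498 over parental 786-O, CRYL1 was higher by 0.65 (edgeR adjusted p = 1.4e-05), but MME was not called (0.21, adjusted p = 0.056). MME stood at 17.4 ± 0.186 CPM in parental 786-O, 5.53 ± 0.24 in parental A498 and 20 ± 0.641 in resistant A498. ENPEP, glutamyl aminopeptidase, fell from 41.2 ± 1 to 13.5 ± 1.53 CPM in resistant 786-O, and was at 14.4 ± 0.91 in parental A498 and 25.8 ± 1.49 in resistant A498. ANPEP, alanyl aminopeptidase, rose from 52.6 ± 1.3 to 118 ± 8.4 CPM in resistant 786-O, and had 960 ± 28.3 in parental A498 against 69 ± 4.27 in resistant A498. ASS1, argininosuccinate synthase, fell from 10.2 ± 0.343 to 1.92 ± 0.919 CPM in resistant 786-O, with 1.99 ± 0.372 in resistant A498 and 0.132 ± 0.0185 in parental A498. The summed level of this list was 290 to 294 CPM in parental 786-O, 445 to 552 in resistant 786-O, 1278 to 1332 in parental A498 and 469 to 478 in resistant A498.

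Genes of injured or dedifferentiated tubule were all tested. Of the 18, 5 rose and 8 fell in resistant over parental 786-O (median log2 fold change -0.21, 72.2% called against 68.5% of all genes), and 8 were higher and 10 lower in resistant over parental A498 (median -0.50, 100% against 72.7%). The medians of all genes were 0.03 and -0.00. Over parental 786-O, the resistant A498 libraries had 10 higher and 7 lower (94.4% called against 63.6%), with a median of 0.62 against 0.00. The median of the list in parental 786-O over parental A498 was -0.35. VIM, the intermediate filament of dedifferentiated tubule cells, fell from 6814 ± 226 to 4462 ± 103 CPM in resistant 786-O, and was at 3479 ± 75.7 in parental A498 and 3059 ± 80.7 in resistant A498. KRT7, a keratin of the distal nephron and collecting duct, rose from 0.656 ± 0.0758 to 7.98 ± 0.679 CPM in resistant 786-O, with 9.91 ± 0.352 in parental A498 and 5.04 ± 0.173 in resistant A498. CLU, a secreted chaperone, rose in both pairs, from 15.8 ± 0.623 to 65.6 ± 4.22 CPM and from 58.2 ± 1.59 to 89.1 ± 3.14. KRT8 fell in both, by log2 fold changes of -0.60 (edgeR adjusted p = 6.0e-06) and -1.05 (9.7e-09).

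Markers of other nephron segments and cells were set beside these results, and their part in them was not tested. Of 28 distal nephron and collecting duct genes, 13 were tested, 7 rose and 3 fell in resistant over parental 786-O (76.9% called against 68.5% of all genes), 4 were higher and 4 lower in resistant over parental A498 (61.5% against 72.7%), and 2 to 5 reached 1 CPM per group, with a summed level of 16.4 to 36.4 CPM over the 12 libraries. Of 5 podocyte genes tested, 4 rose in resistant over parental 786-O (80% called against 68.5%), among them PODXL (60.3 ± 1.75 to 151 ± 31.2 CPM) and SYNPO (256 ± 0.692 to 568 ± 105 CPM). In resistant over parental A498, 2 podocyte genes were higher and 2 lower (80% against 72.7%). Over parental 786-O, resistant A498 had 4 podocyte genes higher and 0 lower (80% against 63.6%), and 8 distal genes higher and 1 lower (69.2%). Hepatocyte markers, of which HNF4A is also a regulator, had 1 or 2 of 10 at 1 CPM or more. Of 5 tested, 3 rose and 1 fell in resistant over parental 786-O (80% called against 68.5%), and 2 were higher and 1 lower in resistant over parental A498 (60% against 72.7%). In resistant A498 over parental 786-O, 1 was higher and 2 lower (60% against 63.6%). In resistant over parental 786-O the log2 fold changes were 6.25 for APOA1, 6.70 for APOB, 2.37 for FGB and -1.63 for SERPINA1. Their sum lay at 85.6 to 89.1 CPM in parental 786-O, at 11.3 to 12 in parental A498 and at 24.5 to 41.1 in the other 2 groups. SERPINA1 made up most of it, with 86.1 ± 2.04 CPM in parental 786-O and 27.9 ± 8.87 in resistant 786-O. Endothelial markers summed to 1.71 to 5.33 CPM, and those of fibroblasts and pericytes to 66.9 to 109 CPM in parental 786-O, resistant 786-O and parental A498 and 170 to 179 CPM in resistant A498, where MCAM stood at 131 ± 3.51.

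**Figure D4:**
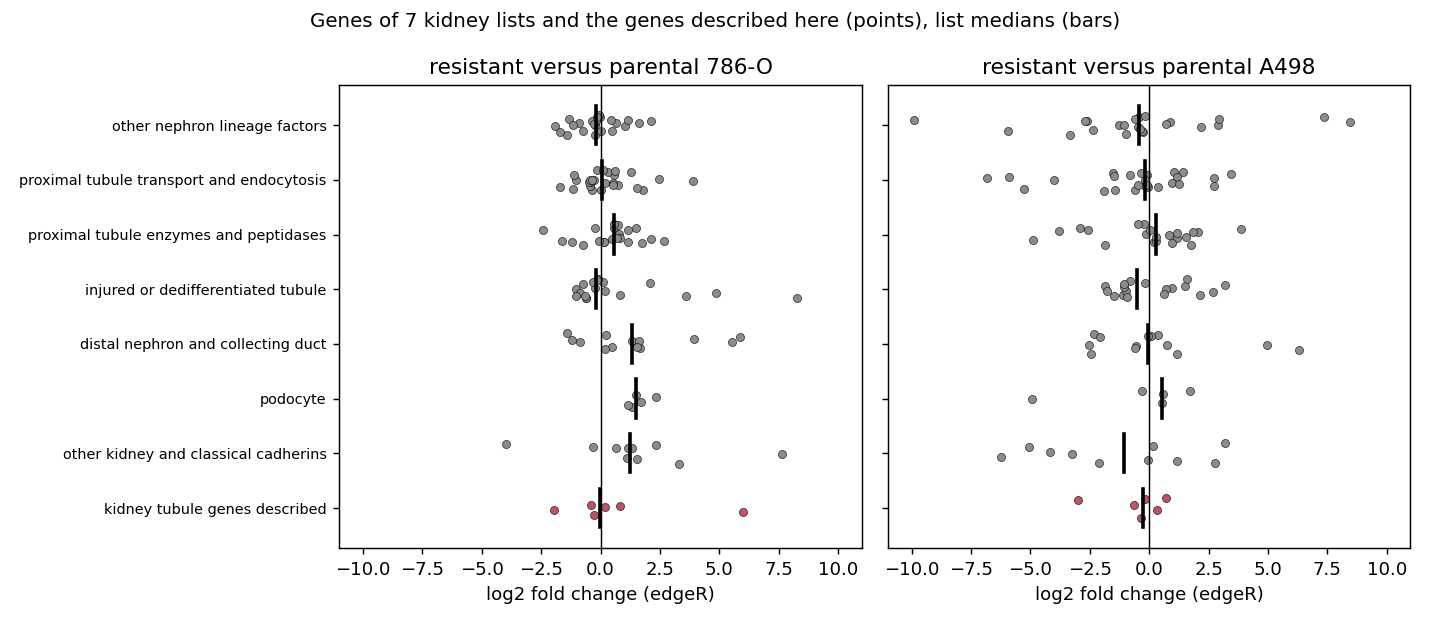
Log2 fold changes from the edgeR model (horizontal axis) of the tested genes of 7 kidney lists and of the 6 genes described here (red), in resistant over parental 786-O (left) and resistant over parental A498 (right). Each point is a gene, spread vertically for legibility, and black bars are list medians. The genes described here run from -1.98 to 5.99 at left and from -2.98 to 0.71 at right, and all lists hold genes on both sides of 0 except the podocyte genes at left.

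Genes next to those described were read from the same fit, taking the 3 tested genes on each side that reached a mean of 5 CPM in a group, with distances between gene centres. Of all genes, 35% rose and 33.5% fell in resistant over parental 786-O, and 36.3% were higher and 36.4% lower in resistant over parental A498. Neighbours were not counted by direction in resistant A498 over parental 786-O. Around CDH6, 3 of the 6 fell in resistant over parental 786-O, 1 rose and 2 were not called. The nearest, ENSG00000254138, which shares 125 exonic bases with CDH6 on the other strand, fell with a log2 fold change of -1.47 (edgeR adjusted p = 2.4e-06), and PDZD2, 614 kilobases beyond, with one of -0.95 (2.6e-06). DROSHA and C5orf22, 205 and 282 kilobases beyond, were the 2 not called (log2 fold changes -0.05 and -0.04). The others lay far from CDH6. HSPD1P1, which fell (log2 fold change -0.73), was 9378 kilobases before it, and PURPL, which rose (3.96), was 3904 kilobases before it. Around PAX2, 4 of 6 rose and 1 fell in resistant over parental 786-O, and 3 rose and 1 fell in resistant over parental A498. SEC31B, 279 kilobases before it, rose by log2 fold changes of 1.88 (edgeR adjusted p = 5.0e-05) and 1.72 (0.0017), and OLMALINC, 369 kilobases before it, by 0.84 (4.5e-04) and 1.32 (4.0e-06). SLF2, the nearest at 156 kilobases, had 0.15 (edgeR adjusted p = 0.021) and 0.72 (1.4e-08). In resistant A498 over parental 786-O, SEC31B was not called (log2 fold change 0.33, edgeR adjusted p = 0.42). OLMALINC and SLF2 were higher in that comparison, by 1.95 (1.0e-07) and 0.30 (1.8e-04). Around CUBN, 5 of 6 fell in resistant over parental 786-O and 1 was not called, whereas 4 were higher and 1 lower in resistant over parental A498.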

How the data were processed

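mRNA libraries, 3 from each parental and each resistant line, were grouped by their labels. The study's methods state that the authors prepared stranded libraries, sequenced them on instruments of 2 kinds, trimmed reads with Trimmomatic (0.36.6), aligned them to GRCh38 with HISAT2 (2.1.0) and counted exonic reads with featureCounts (1.6.3) on GENCODE 33, in a stranded mode with a minimum mapping quality of 12. They deposited raw counts per gene, with no normalization. Although a strand was set, 287 antisense genes inside coding exons had a median of 148% of the counts per base of the coding gene, so the strand setting is uncertain, and with it the counts of genes on opposite strands that overlap. Had the setting been the opposite of the kit's, every gene would be counted from the wrong strand, and these values do not settle it. All rows are gene entries, and 45283 of the 45478 were paired with a symbol.

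The tests used edgeR 4.0.16 under R 4.3.3 (filterByExpr, TMM, glmQLFit and glmQLFTest, prior count 0.125), in a model of 12 libraries with 4 group means. P-values were adjusted by Benjamini-Hochberg over 19929 genes. DESeq2 1.42.0 was an alternative. Ratios of genes with few counts carry exact counting intervals, and 3 counts over a group were used as the floor. Positions and exon lengths come from GENCODE 44 on the same assembly. The code was tested on simulated data. The replicate numbers did not pair the libraries (correlations of same-numbered deviations -0.0862 to 0.0166).

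The members, the 13 lists beside them and the alternatives were chosen with earlier results of these data known. From each list, the text takes the 3 called genes with the largest change in either pair (at least 5 CPM, no overlap) and the 3 most abundant, and reports a part of them, as some are not reported here. Alternatives were scaling by library size, DESeq2, no filter, at least 10 counts in every library, only the 2 groups compared, the replicate block, thinning to the smallest library, a prior count of 2, a log2 fold change over 1, the study's test of raw counts, the fit without resistant A498, and each library left out in turn. Counts of PAX8 summed with PAX8-AS1, and resistant 786-O against parental A498, were added after seeing the data. Viability, immunoblot and respiration data were not used here.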

Additional observations from a re-analysis of the deposited data

Results flagged for a closer look

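The changes of 4 genes differed between the 2 pairs of groups by the test of the difference itself (resistant over parental A498 minus resistant over parental 786-O, edgeR), where 68.3% of all genes tested did. HNF4A differed by -8.96 on the log2 scale (adjusted p = 6.7e-08), as it was higher in resistant 786-O than in parental 786-O and lower in the libraries labelled resistant A498 than in parental A498. LHX1 differed by -0.82 (adjusted p = 2.4e-06). LHX1-DT differed by -1.03 (adjusted p = 1.6e-06). CDH6 differed by 1.82 (adjusted p = 2.0e-05), with a fall in resistant 786-O and no call in resistant over parental A498. For all 4 the comparison depends on the label of the resistant A498 libraries. Against parental 786-O in place of parental A498, the log2 fold changes of these libraries were 5.47 for HNF4A, 0.16 for LHX1, 0.26 for LHX1-DT and -1.41 for CDH6, each with the sign of resistant over parental 786-O, a comparison that shares the parental 786-O libraries. With 3 libraries a group, no test of single outlying values was run.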

How the results depend on the processing

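The number of the 6 tested genes called was 5 in resistant over parental 786-O, 4 in resistant over parental A498, 3 for the difference, 4 between the parental lines, 4 in resistant A498 over parental 786-O and 2 between the groups labelled resistant. With the replicate block these counts were 5, 4, 3, 4, 4 and 2, and the block changed no other call described here. Requiring a log2 fold change over 1 left 2 in resistant over parental 786-O, 1 in resistant over parental A498, 2 between the parental lines, 2 in resistant A498 over parental 786-O and 0 between the groups labelled resistant. The study's test of raw counts, which takes no account of depth, gave 3 in resistant over parental 786-O, 1 in resistant over parental A498 and 4 between the groups labelled resistant, for which DESeq2 and the fit of those 2 groups alone gave 1. Leaving out 1 library in turn gave 3 to 5 for the difference and 1 to 3 between the groups labelled resistant. The count of 5 came without resistant 786-O replicate 2, where PAX8 (0.12) and PAX2 (-0.26) were also called. Over all genes, 13643 calls in resistant over parental 786-O became 8211 by the study's test and 4382 with the larger change required, and 14496 in resistant over parental A498 became 6222 and 6137. The larger change left 6998 for the difference, 6360 between the parental lines, 3983 in resistant A498 over parental 786-O, 1455 in resistant A498 over resistant 786-O and 6176 in resistant 786-O over parental A498.

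Some differences changed sign, and those that had been called did so only in the study's test of raw counts. PAX2 in parental 786-O over parental A498 became -0.07 with scaling by library size, -0.04 with DESeq2, -0.05 with 10 counts in every library, -0.03 in the 2 groups alone, -0.05 on thinning and -0.04 without the resistant A498 libraries. Scaling by library size moved the median of all genes by 0.14 in resistant over parental 786-O and by 0.15 in resistant A498 over parental 786-O. It turned the difference of PAX8 to -0.01 (-0.02 with 10 counts in every library), PAX8-AS1 in resistant over parental 786-O to 0.06, CUBN in resistant A498 over parental 786-O to 0.09, CDH16 in resistant over parental A498 to 0.04 and MAF in resistant over parental 786-O to 0.01. Without a filter, the difference of PAX8-AS1 was 0.00 and CDH16 in resistant over parental A498 0.01. Thinning gave 0.07 and 0.14 for CUBN in resistant 786-O and resistant A498 over parental 786-O, 0.51 for SLC16A9 in resistant over parental 786-O and 0.01 for LHX1-DT in resistant A498 over resistant 786-O. By raw counts, resistant A498 over parental 786-O gave -0.04 for PAX2 (0.70 by edgeR, called), -0.57 for LHX1 and -0.48 for LHX1-DT (0.26, called). The same test gave -0.70 for CUBN and -0.33 for CDH6 (0.57, called) in resistant A498 over resistant 786-O. In resistant 786-O over parental A498 it gave 0.67 for PAX8, 0.11 for LHX1 (-0.61, called) and 0.08 for LHX1-DT (-0.65, called). In resistant over parental A498 it gave -0.14 for SLC2A1 and -0.01 for CDH2 (0.17, called), and in resistant over parental 786-O 0.02 for ITGB8, 0.10 for PAX8-AS1 and 0.05 for MAF.

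Leaving out 1 library in turn turned the sign within these ranges: CDH16 in resistant over parental A498 -0.12 to 0.15, CUBN in resistant 786-O over parental A498 -0.20 to 0.36 and in resistant A498 over parental 786-O -0.21 to 0.15, ITGB8 -0.26 to 0.02, SLC2A1 -0.06 to 0.12 and TEK -1.36 to 0.52 in resistant over parental 786-O, PAX2 -0.02 to 0.09 in parental 786-O over parental A498 and -0.26 to 0.07 for the difference, and PAX8-AS1 -0.09 to 0.01 for the difference. In resistant A498 over resistant 786-O these were -0.05 to 0.03 for LHX1, -0.11 to 0.03 for LHX1-DT and -0.28 to 0.05 for PAX2. None of these was called in the model of all 12 libraries. Causes were not tested. Depth limits EMX2, LRP2, CUBN and HNF4A, whose libraries hold between 0 and 206 counts, and libraries of parental A498 and resistant A498 are shallower than the others.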
